A study of Homo sapiens with 12 samples.

Results

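The genes described are 10 that act in the growth of blood vessels, out of 58347 genes counted in melanoma cells: the secreted factors VEGFA, VEGFB, VEGFC, PGF, ANGPT1, ANGPT2, ANGPTL4 and ESM1, the receptor KDR, and the inhibitor THBS1. Of these, 9 were named for their function, with earlier results of these data already known. ESM1 was selected on its large fall in cells treated with the vemurafenib + tretinoin combination against vehicle, so its levels are given as a description, with no test. The data are RNA-seq counts of A375, an established human melanoma cell line that carries mutant BRAF. Cells were exposed for 8 h to dimethyl sulfoxide (DMSO, the vehicle), tretinoin, vemurafenib or both drugs, with 3 replicates per group and a concentration of 5 µM listed for each group, the vehicle included. Vemurafenib blocks mutant BRAF, which drives the MEK-ERK kinase cascade. Tretinoin (all-trans retinoic acid) activates the retinoic acid receptors, which are transcription factors. The 12 samples are of 1 line and hold no vessels, and no label ties the replicates to separate cultures, so that the P values measure the spread between these samples, which may be technical.

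Vessels sprout when endothelial cells sense ligands of the VEGF family, chiefly VEGFA through the receptor tyrosine kinase KDR (VEGFR2), with the neuropilins as coreceptors and FLT1 (VEGFR1) also binding VEGFA, VEGFB and PGF. VEGFC acts mainly on lymphatic vessels through FLT4. The angiopoietins act through the receptor TEK (TIE2), which ANGPT1 activates and on which ANGPT2 acts by context. ANGPTL4 inhibits lipoprotein lipase and is a known target of hypoxia and of the PPAR receptors. ESM1 (endocan) is a secreted proteoglycan best known from endothelial tip cells. THBS1 (thrombospondin 1) is a matrix protein that restrains angiogenesis. Melanoma cells secrete many of these proteins, and some lines also transcribe receptors and adhesion genes that are best known from endothelium.

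Total counts ran from 13510235 to 21534377 per sample. The level of a gene is given below as CPM, the counts per 1000000 counts of the library, with the library total scaled by edgeR's TMM factor. Of the 16740 genes with enough counts to test, 9 were members. ANGPT2 did not pass the filter. All 13 of 13 genes listed for ERK output fell with vemurafenib and with the combination, and their summed level was between 2619 and 2877 CPM with DMSO and between 286.5 and 301.4 CPM with vemurafenib. Of 9 tested retinoid response genes, 5 rose with tretinoin. By the same test, described below, 26.3% of all tested genes fell with vemurafenib, 26.5% fell with the combination and 3.48% rose with tretinoin. The melanocyte marker list was only in part detected: 4 of its 10 genes had at least 10 counts in every sample. SOX10 was at 0 in all samples, and TYR reached at most 1 count. Of the SOX10 exon bases, 2.4% are shared with POLR2F, where the authors' counting assigned fragments to neither gene. Whether the 0 of SOX10 comes from the cells or from the counting was not tested. A list of 10 endothelial markers, of which 2 had at least 10 counts in every sample, summed to between 19.6 and 20.9 CPM with DMSO, between 25.3 and 31.5 with tretinoin, between 10.6 and 12.6 with vemurafenib and between 22.3 and 23.6 with the combination. In bulk RNA, fewer cells of a type and less RNA per cell cannot be told apart.

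In DMSO, the members spanned a wide range of levels. Divided by the length of the gene's exons, THBS1 was highest, at 370.5 CPM per kb. VEGFB followed at 30.5 CPM per kb, then ANGPTL4 at 7.28, VEGFC at 5.16, VEGFA at 4.30, ESM1 at 1.72, ANGPT1 at 1.56, PGF at 0.925 and KDR at 0.555. ANGPT2 was lowest, at 0.0221 CPM per kb. The exon length counts every annotated isoform, and for VEGFA it was 14431 bases, against 1545 for VEGFB.

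**Figure D1:**
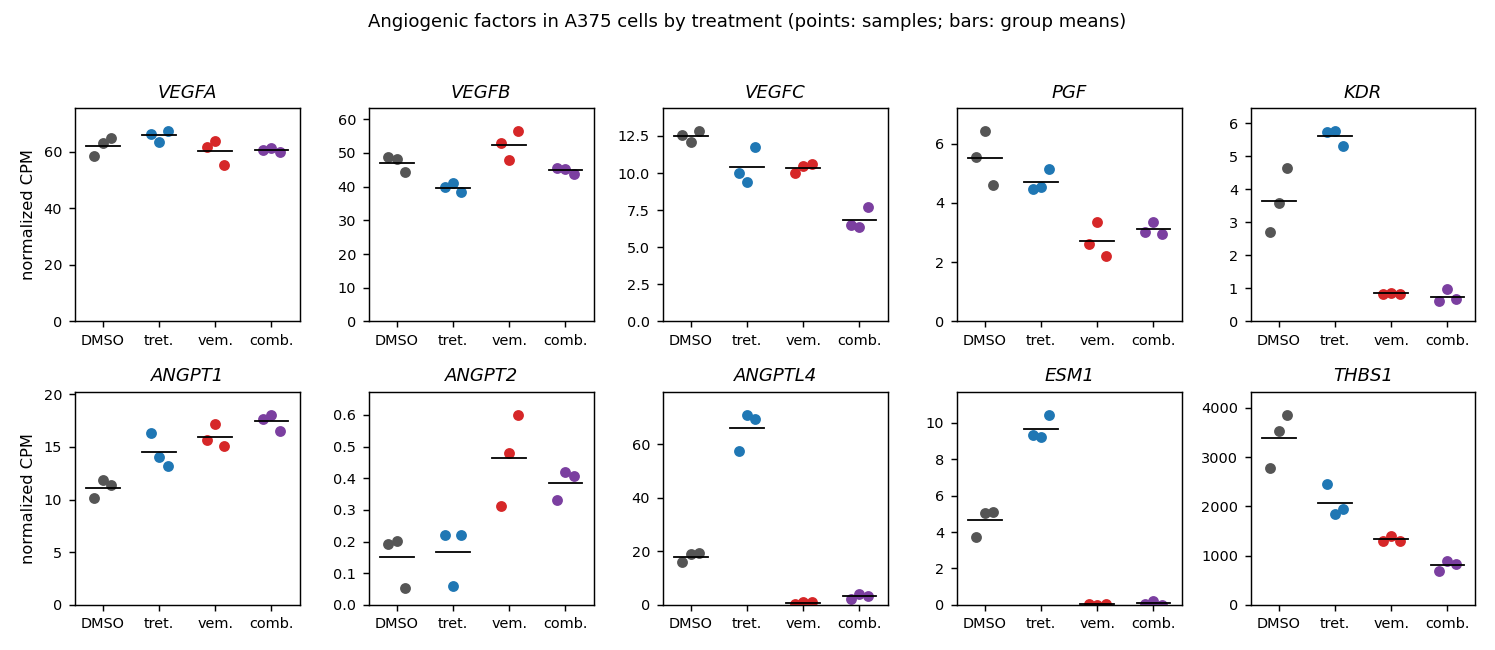
Normalized CPM of the 10 members (linear axis from 0, a scale of its own for each gene) in DMSO, tretinoin (tret.), vemurafenib (vem.) and combination (comb.) samples; points are samples and bars the means of 3. VEGFA stays between 55.4 and 67.2 CPM in all 12 samples, whereas ANGPTL4 and ESM1 are highest in the 3 tretinoin samples and close to 0 in the 6 samples with vemurafenib.

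ANGPTL4, KDR, THBS1 and PGF fell with vemurafenib under every alternative run that tested them, and tretinoin raised ANGPTL4. A member was called where edgeR's quasi-likelihood test gave a Benjamini-Hochberg adjusted P below 0.05 over all 16740 genes. Of the 8 tested members other than ESM1, 5 fell with vemurafenib against DMSO (VEGFC, PGF, KDR, ANGPTL4 and THBS1) and 1 rose (ANGPT1), where 26.3% of all tested genes were called lower and 26.4% higher. VEGFC lost its call in 13 of 14 alternatives, which leaves 4 of 8 lower. The median log2 fold change of the 8 was -0.63, against 0.02 over all genes. The combination against DMSO called the same 5 lower and ANGPT1 higher, with 26.5% of all genes lower and 27.1% higher. With tretinoin against DMSO, ANGPTL4 and ANGPT1 rose and THBS1 fell, where 3.48% of all genes were called higher and 2.20% lower. ANGPT1 lost that call in 11 of 14 alternatives. The 583 and 368 genes behind those shares became 273 and 106 without DMSO replicate 2, and 234 and 71 in a fit of only these groups.

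Adding tretinoin to vemurafenib raised ANGPTL4 and lowered VEGFC and THBS1, and the other 5 tested members, ESM1 aside, were not called. In that comparison 2.27% of all genes were called higher and 2.20% lower. Adding vemurafenib to tretinoin called the same 5 members lower as against DMSO and ANGPT1 higher, with 25.0% of all genes lower and 24.1% higher. Comparisons that share a group share its samples and are not independent of each other.

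**Figure D2:**
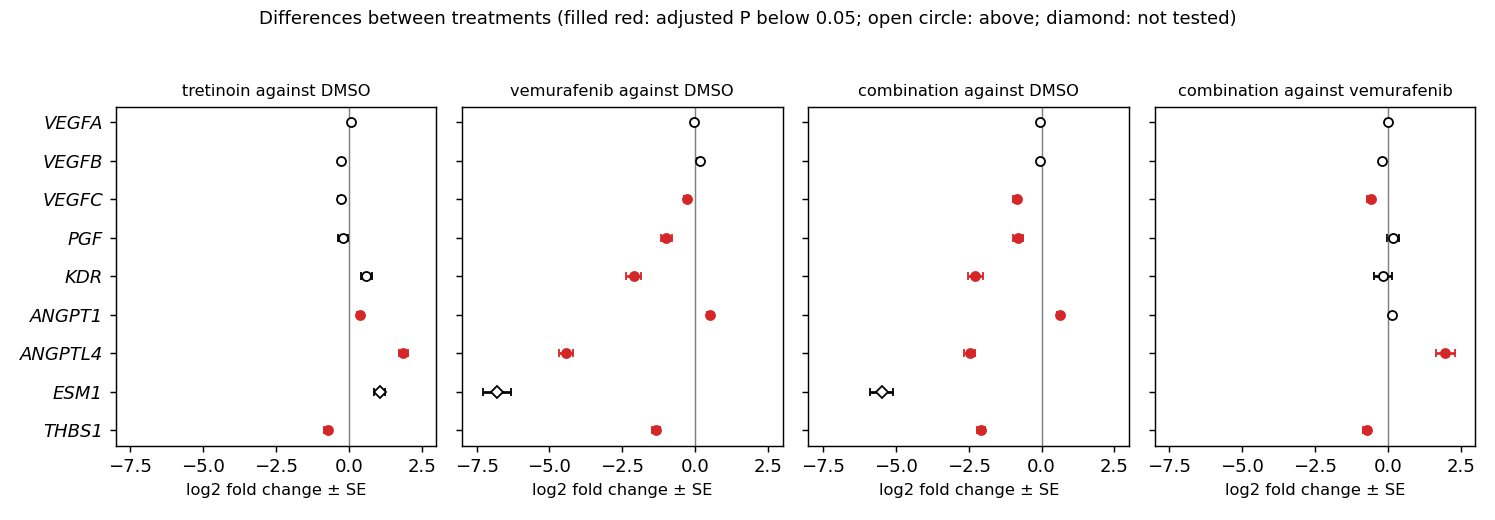
Log2 fold change ± SE of the 9 tested members in 4 comparisons; filled red circles have an adjusted P below 0.05, open circles do not, and diamonds mark ESM1, which was not tested here. ANGPTL4 lies to the right of 0 for tretinoin against DMSO and for the combination against vemurafenib. It lies to the left for vemurafenib and for the combination, each against DMSO. ESM1 in the combination against vemurafenib is left out for its few counts.

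VEGFA (chr6:43770184-43786487, GRCh38), the main VEGF ligand, was not called in any comparison. Its levels were 58.3, 63.1 and 64.6 CPM with DMSO, 66.4, 63.5 and 67.2 with tretinoin, 61.6, 63.8 and 55.4 with vemurafenib, and 60.5, 61.3 and 59.8 with the combination. All groups overlapped except tretinoin and the combination, where each tretinoin sample was the higher. The fitted log2 fold change was 0.08 with tretinoin (95% interval -0.08 to 0.24), -0.04 with vemurafenib (-0.20 to 0.12) and -0.04 with the combination (-0.20 to 0.12), each against DMSO. The sign of the latter pair turned with scaling by total counts alone. VEGFA transcripts are spliced into several isoforms, which counts per gene do not tell apart.

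VEGFB (chr11:64234538-64238793), a ligand of FLT1, was also not called against DMSO. Its levels were 48.7, 48.2 and 44.3 CPM with DMSO, 39.7, 41.0 and 38.3 with tretinoin, 52.9, 47.7 and 56.4 with vemurafenib, and 45.4, 45.2 and 43.8 with the combination. Each tretinoin sample lay below all others. The difference of tretinoin from DMSO was -0.25 on the log2 scale (SE 0.08, edgeR adjusted P = 0.066). With DESeq2 in place of edgeR it passed (adjusted P = 0.0301). The difference of vemurafenib from DMSO was 0.15 (SE 0.07, edgeR adjusted P = 0.092), and it passed with total counts alone (0.35, adjusted P = 0.00105), with 10 counts required in every sample (0.20, adjusted P = 0.0298) and without vemurafenib replicate 2 (0.21, adjusted P = 0.038). VEGFB with vemurafenib was 0.40 above its level with tretinoin (SE 0.07, edgeR adjusted P = 0.00026).

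VEGFC (chr4:176683538-176792727), the lymphatic ligand, was lowest with both drugs. Its levels were 12.6, 12.1 and 12.8 CPM with DMSO, 9.97, 9.42 and 11.8 with tretinoin, 10.0, 10.5 and 10.6 with vemurafenib, and 6.49, 6.37 and 7.74 with the combination. The 3 combination samples lay below the other 9, and the single drugs overlapped each other. The combination was 1.82-fold lower than DMSO (log2 -0.86, SE 0.11, edgeR adjusted P = 6.4e-06), 1.51-fold lower than vemurafenib (log2 -0.59, SE 0.12, edgeR adjusted P = 0.004) and 1.51-fold lower than tretinoin (log2 -0.60, SE 0.12, edgeR adjusted P = 0.00038). Against DMSO, the fall with vemurafenib alone was small (log2 -0.27, SE 0.11, edgeR adjusted P = 0.048), and it missed the threshold when any of the 6 samples was left out (adjusted P from 0.0616 to 0.125) and with DESeq2 (0.0948). The difference with tretinoin alone did not pass (log2 -0.26, edgeR adjusted P = 0.17).

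PGF (chr14:74941834-74955784, placental growth factor), a ligand of FLT1, fell with vemurafenib whether or not tretinoin was present. Its levels were 5.54, 6.42 and 4.59 CPM with DMSO, 4.47, 4.53 and 5.15 with tretinoin, 2.60, 3.37 and 2.22 with vemurafenib, and 3.03, 3.35 and 2.94 with the combination. All 6 samples with vemurafenib lay below all 6 without it. Vemurafenib lowered PGF 1.99-fold (log2 -0.99, SE 0.18, edgeR adjusted P = 0.00017) and the combination 1.76-fold (log2 -0.82, SE 0.17, edgeR adjusted P = 0.00074). Against tretinoin the combination was 1.52-fold lower (log2 -0.61, SE 0.18, edgeR adjusted P = 0.0089). The combination and vemurafenib groups overlapped (log2 0.17, edgeR adjusted P = 0.79, 95% interval -0.26 to 0.61). VEGFD, the remaining VEGF ligand listed, had at most 6 counts in a sample and was not tested.

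KDR (chr4:55078259-55125595), the receptor of VEGFA, was at a low level in A375 cells and fell further with vemurafenib. Its levels were 2.71, 3.58 and 4.64 CPM with DMSO, 5.72, 5.75 and 5.31 with tretinoin, 0.831, 0.866 and 0.841 with vemurafenib, and 0.605, 0.976 and 0.679 with the combination. The 6 samples with vemurafenib lay below 1 CPM and the 3 tretinoin samples above every DMSO sample. KDR was 4.32-fold lower with vemurafenib than with DMSO (log2 -2.11, SE 0.25, edgeR adjusted P = 1.5e-06) and 4.81-fold lower with the combination (log2 -2.27, SE 0.25, edgeR adjusted P = 6.1e-07). The difference between tretinoin and DMSO was 0.60 (SE 0.19, edgeR adjusted P = 0.075). Without DMSO replicate 3, the highest of its group, it was 0.83 (adjusted P = 0.0337). Of the 8 tested endothelial markers, 2 fell with vemurafenib (CDH5 and ROBO4) and 3 rose (TEK, VWF and ERG), with a median log2 fold change of 0.14. Over all tested genes, 26.3% were called lower and 26.4% higher with vemurafenib. With the combination, the list of 10 markers summed above its level with DMSO, but its genes went both ways. Mean TEK was 0.959 CPM with DMSO and 10.2 with the combination, ROBO4 10.3 and 0.909, and CDH5 4.56 and 3.15. Of the 8 tested, 4 were called higher and 2 lower with the combination (27.1% and 26.5% over all genes). The lower call of CDH5 was lost with total counts alone (edgeR adjusted P = 0.119). It was also lost without DMSO replicate 3 (0.11) or combination replicate 1 (0.102). KDR and ESM1 were near their lowest with the combination. The part of other endothelial genes in the KDR and ESM1 results was not tested.

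FLT1, the other VEGF receptor tested, fell with each drug and furthest with both. FLT1 levels were 17.6, 19.4 and 20.4 CPM with DMSO, 12.2, 12.3 and 8.93 with tretinoin, 7.17, 5.53 and 7.57 with vemurafenib, and 4.79, 4.18 and 4.03 with the combination. The 4 groups did not overlap, and FLT1 fell with tretinoin (log2 -0.79, edgeR adjusted P = 0.0015), with vemurafenib (log2 -1.51, edgeR adjusted P = 7.6e-08) and with both (log2 -2.15, edgeR adjusted P = 1.5e-09). The further fall from vemurafenib to the combination (log2 -0.64, edgeR adjusted P = 0.024) missed the threshold when vemurafenib replicate 1 or 3 or combination replicate 2 or 3 was left out (adjusted P from 0.102 to 0.114). FLT4 had at most 8 counts in a sample and was not tested.

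The neuropilins rose with tretinoin. NRP1 levels were 48.3, 47.9 and 51.8 CPM with DMSO, 86.1, 77.9 and 76.6 with tretinoin, 70.7, 74.8 and 68.6 with vemurafenib, and 119.8, 125.6 and 121.5 with the combination. Both single drugs raised NRP1 (log2 0.70 with tretinoin, edgeR adjusted P = 7.2e-06; log2 0.53 with vemurafenib, edgeR adjusted P = 4.7e-06), and the combination lay above both (log2 1.31 against DMSO, edgeR adjusted P = 4.9e-11). NRP2 levels were 56.5, 52.0 and 55.6 CPM with DMSO, 126.6, 110.8 and 108.1 with tretinoin, 52.4, 50.2 and 46.6 with vemurafenib, and 115.1, 127.0 and 124.5 with the combination. NRP2 rose with tretinoin in the absence (log2 1.07, edgeR adjusted P = 1.6e-07) and in the presence of vemurafenib (log2 1.30, edgeR adjusted P = 4.7e-09), and the 6 samples with tretinoin lay above the 6 without. With vemurafenib alone NRP2 was not called (log2 -0.14, edgeR adjusted P = 0.15).

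**Figure D3:**
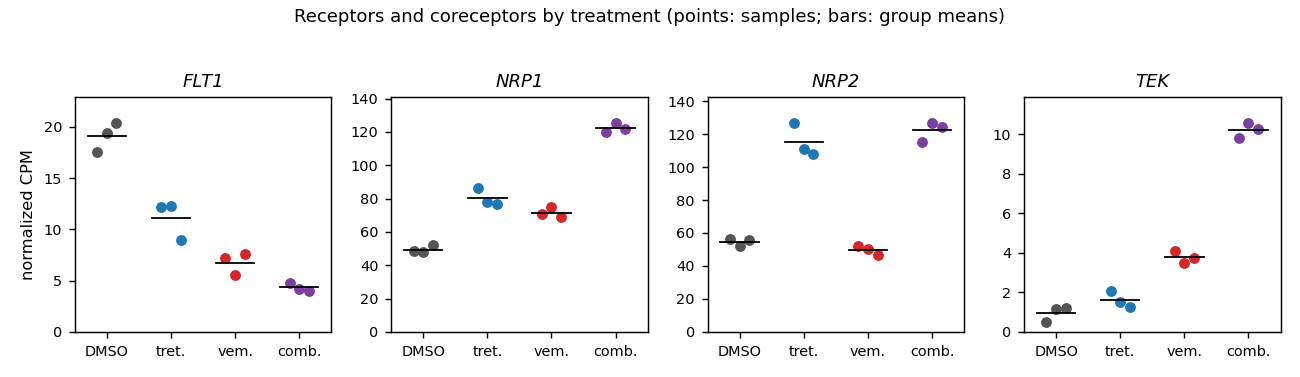
Normalized CPM (linear axis from 0) of the VEGF receptor FLT1, the coreceptors NRP1 and NRP2, and the angiopoietin receptor TEK by treatment; points are samples and bars the means of 3. FLT1 falls step by step from DMSO to the combination, NRP2 is high in the 6 samples with tretinoin, and TEK is highest in the 3 combination samples, between 9.79 and 10.6 CPM.

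ANGPT1 (chr8:107249482-107498055), the activating ligand of TEK, was the single tested member that rose with vemurafenib. Its levels were 10.1, 11.9 and 11.4 CPM with DMSO, 16.4, 14.1 and 13.2 with tretinoin, 15.6, 17.1 and 15.1 with vemurafenib, and 17.7, 18.1 and 16.5 with the combination. Every treated sample lay above the 3 DMSO samples. The rise was 1.43-fold with vemurafenib (log2 0.52, SE 0.10, edgeR adjusted P = 0.00047) and 1.56-fold with the combination (log2 0.64, SE 0.10, edgeR adjusted P = 5e-05). The rise with tretinoin alone (log2 0.38, SE 0.11, edgeR adjusted P = 0.046) lost its call with DESeq2 (adjusted P = 0.0516) and when any DMSO sample or tretinoin replicate 1 or 2 was left out (adjusted P from 0.0715 to 0.152). ANGPT1 in the combination was above tretinoin by 0.27 (SE 0.10, edgeR adjusted P = 0.036), a call that was lost with DESeq2 (adjusted P = 0.0617) and without tretinoin replicate 2 or 3 or combination replicate 1 or 2 (adjusted P from 0.0832 to 0.164).

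ANGPT2 (chr8:6499651-6563409), which competes with ANGPT1 for TEK, was close to absent. It had 3, 3 and 1 counts with DMSO, 3, 1 and 4 with tretinoin, 6, 10 and 10 with vemurafenib, and 6, 9 and 9 with the combination. Each of the 6 samples with vemurafenib had more counts than each of the 6 without it. From counts pooled over a group and scaled by the library size, vemurafenib was 3.23 times DMSO (95% exact interval 1.36 to 8.81) and the combination 2.73 times (1.14 to 7.51). These intervals cover counting error only. In an edgeR fit without the low-count filter the log2 fold change with vemurafenib was 1.62 (adjusted P = 0.082), and with DESeq2 it was 1.67 (adjusted P = 0.089), so that ANGPT2 was not called at this depth.

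TEK, the receptor of both angiopoietins, rose with vemurafenib and more with both drugs. Its levels were 0.516, 1.15 and 1.21 CPM with DMSO, 2.05, 1.51 and 1.26 with tretinoin, 4.10, 3.46 and 3.73 with vemurafenib, and 9.79, 10.6 and 10.3 with the combination. The groups did not overlap, and the gap between the combination and vemurafenib (log2 1.44, SE 0.17, edgeR adjusted P = 2.2e-05) was much larger than the spread within either. Against DMSO the log2 fold change was 1.95 with vemurafenib (SE 0.24, edgeR adjusted P = 2.8e-06) and 3.39 with the combination (SE 0.21, edgeR adjusted P = 6e-10), while that with tretinoin was not called (0.70, edgeR adjusted P = 0.15). The related receptor TIE1 was not called in any comparison.

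ANGPTL4 (chr19:8363289-8374373) moved in opposite directions with the 2 drugs. Its levels were 16.1, 18.9 and 19.3 CPM with DMSO, 57.6, 71.2 and 69.6 with tretinoin, 0.312, 1.01 and 1.20 with vemurafenib, and 2.26, 4.09 and 3.35 with the combination. The 4 groups did not overlap, in the order tretinoin, DMSO, combination, vemurafenib. Tretinoin raised ANGPTL4 3.66-fold in the absence of vemurafenib (log2 1.87, SE 0.15, edgeR adjusted P = 6.1e-07) and 3.91-fold in its presence (log2 1.97, SE 0.31, edgeR adjusted P = 5e-04). Vemurafenib lowered it 21.6-fold (log2 -4.43, SE 0.24, edgeR adjusted P = 1e-10), and the combination remained 5.52-fold below DMSO (log2 -2.47, SE 0.19, edgeR adjusted P = 6.5e-09). The vemurafenib samples held 6, 21 and 20 counts, so the size of the fall rests on few counts. The rise with tretinoin did not differ detectably between cells with and without vemurafenib (interaction 0.10 on the log2 scale, 95% interval -0.67 to 0.87, edgeR adjusted P = 0.91).

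ESM1 (chr5:54977864-55022671), the member chosen by its fall, was nearly silent in all 6 samples with vemurafenib. It had 58, 75 and 97 counts with DMSO, 127, 159 and 191 with tretinoin, 1, 0 and 1 with vemurafenib, and 1, 5 and 0 with the combination. As CPM these were 3.74, 5.07 and 5.12 with DMSO, 9.31, 9.24 and 10.5 with tretinoin, 0.0519, 0 and 0.0601 with vemurafenib, and 0.0550, 0.232 and 0 with the combination. The tretinoin samples were all above the DMSO samples, and no sample with vemurafenib came near either group. The mean was 4.64 ± 0.78 CPM with DMSO and 9.67 ± 0.68 with tretinoin (SD, n = 3).

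As a description, without a test, ESM1 counts were pooled over a group and scaled by library size. They were 48.1 times higher with DMSO than with the combination (230 against 6 counts), the fall that chose ESM1. Combination replicate 2 held 5 of those 6 counts, and without it the ratio was 188. DMSO was 132 times above vemurafenib (230 against 2 counts), or 187 times without vemurafenib replicate 3 and 83.8 times without replicate 2. Tretinoin was 2.08 times above DMSO (477 against 230 counts). With 6 counts in the combination and 2 with vemurafenib, the ratio of these groups was 2.75 (95% exact interval 0.492 to 27.9). That interval covers counting error only, and no difference could be seen at this depth.

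The single pair of groups that shares no sample with the contrast that chose ESM1 is vemurafenib against tretinoin, in which 25.0% of all genes were called lower. ESM1 passed the low-count filter through the DMSO and tretinoin groups, where it is high, so this pair too is given without a test. Every vemurafenib sample lay below every tretinoin sample. The pooled ratio was 275 (477 against 2 counts), or between 174 and 389 without a single vemurafenib sample.

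The genes whose log2 CPM followed ESM1 most closely over the 12 samples, by the root mean square difference of profiles centred on their own means, were AREG (0.501), CXCL8 (0.556), ETV5 (0.701), DUSP6 (0.729) and SPRY4 (0.736), against 2.76 for the median gene. A prior count of 2 was added before taking logs. ESM1 had at most 5 counts in a sample with vemurafenib, so the depth of its profile there depends on that prior. The ranking is a description, as the 12 samples include those that chose ESM1. AREG encodes an EGF receptor ligand, CXCL8 a chemokine, ETV5 an ETS transcription factor, DUSP6 a phosphatase that acts on ERK, and SPRY4 an inhibitor of receptor kinase signalling. Among the members, ANGPTL4 was nearest at 0.958, followed by KDR at 1.56. The 5 nearest genes differed from ESM1 in the tretinoin group: their log2 fold changes against DMSO were between -0.06 and 0.12, whereas that of ESM1 was 1.06.

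The stretches from 40 to 11 bases before the annotated start are shown for the 2 members with the largest falls with vemurafenib and, for comparison, for KDR and THBS1, as RefSeq sequence of GRCh38.p14 read 5′ to 3′ on the strand of the gene. Capitals mark matches to TATAAA (the TATA box) and ACGTG (the core of hypoxia response elements).
ESM1, chr5:54985604-54985633, minus strand: acccagtgTATAAAactcataaACGTGtag
ANGPTL4, chr19:8364115-8364144, plus strand: cgcacccaactTATAAAaaccgtcctcggg
KDR, chr4:55125606-55125635, minus strand: cctccgcgctctagagtttcggcaccagct
THBS1, chr15:39581039-39581068, plus strand: cgagcgcccctttaaaagcgcgcggctcct
The ESM1 stretch also overlaps 2 annotated exons, counted on either strand and without regard to their gene.

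Promoter windows of 300 bases were found for ESM1, ANGPTL4, KDR, THBS1, VEGFB, VEGFC and PGF, the last with 2 windows. VEGFA, ANGPT1 and ANGPT2 were not examined here. Of the 8 windows, those of ESM1 and ANGPTL4 held TATAAA on either strand, which 11.6% of 34943 promoters hold, and the same pair held ACGTG, found in 21.4%. In ANGPTL4 the ACGTG match lay further upstream than the stretch shown. The GC box GGGCGG was in 7 windows, all but that of ESM1, and in 44.9% of promoters. CCGGAA (ETS factors, 17.2%), TGANTCA (AP-1, 7.70%) and AGGTCA (a retinoid receptor half-site, 13.8%) were in none of the 8. A pattern of CC and GG with any 6 bases between, looser than a CArG box, was in 78.2% of promoters and in all 8. Such matches describe the letters in these windows, not binding.

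THBS1 (chr15:39581079-39599466), the inhibitor among the members and by far the most abundant of them, fell with each drug and furthest with both. Its levels were 2783, 3534 and 3862 CPM with DMSO, 2445, 1841 and 1938 with tretinoin, 1291, 1403 and 1295 with vemurafenib, and 686, 892 and 830 with the combination. The 4 groups did not overlap. THBS1 was 1.64-fold lower with tretinoin (log2 -0.71, SE 0.12, edgeR adjusted P = 0.0021), 2.55-fold lower with vemurafenib (log2 -1.35, SE 0.13, edgeR adjusted P = 9.2e-08) and 4.23-fold lower with the combination (log2 -2.08, SE 0.13, edgeR adjusted P = 4.8e-10) than with DMSO. On top of vemurafenib, tretinoin lowered it by a further 1.66-fold (log2 -0.73, SE 0.12, edgeR adjusted P = 0.0013), and the interaction was -0.02 (95% interval -0.42 to 0.39, edgeR adjusted P = 0.97). Of its exon bases, 7.6% are shared with other genes, where the authors' counting assigned fragments to neither.

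For none of the 8 tested members other than ESM1 did the change with the combination differ from the sum of the single-drug changes past the threshold. The interaction of the drugs is the difference between the effect of tretinoin with and without vemurafenib. It was called for 0 of these 8 by edgeR, and for 0 under every alternative including DESeq2. For ESM1 it was not tested. Over all genes 0.382% were called higher and 0.424% lower, and 2619 genes had an unadjusted P below 0.05. The values ran from -0.76 for KDR (95% interval -1.60 to 0.08, edgeR adjusted P = 0.33) to 0.39 for PGF (-0.20 to 0.97, edgeR adjusted P = 0.47). For VEGFC the interaction was -0.33 (-0.70 to 0.05, edgeR adjusted P = 0.34). These intervals are wide enough to hold sizeable departures from the sum.

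**Figure D4:**
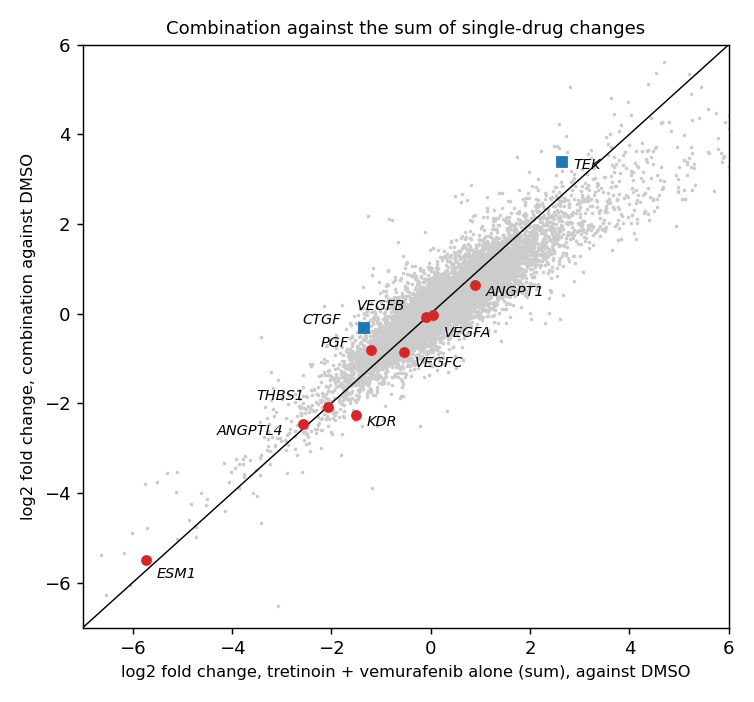
Log2 fold change of the combination against DMSO (y) against the sum of the tretinoin and vemurafenib log2 fold changes (x) for all 16740 tested genes (grey), the 9 tested members (red circles), and TEK and CTGF (blue squares); the line marks equality, and both axes share the DMSO samples. ANGPTL4 and THBS1 lie on the line, and KDR lies 0.76 below it.

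The further angiogenesis genes numbered 59, of which 45 were tested. With vemurafenib 14 rose and 16 fell (median log2 fold change 0.05), with the combination 16 rose and 12 fell (0.14), and with tretinoin 9 rose and 3 fell (0.07), each against DMSO. From vemurafenib to the combination, 10 rose and 2 fell (0.05). As given above, 26.4% of all tested genes rose and 26.3% fell with vemurafenib, 27.1% and 26.5% with the combination, 3.48% and 2.20% with tretinoin, and 2.27% and 2.20% from vemurafenib to the combination.

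Among the other secreted angiogenic factors, 6 of 17 tested rose and 9 fell with vemurafenib (26.4% and 26.3% over all genes). The largest changes were those of the chemokine CXCL8 (log2 -5.64, edgeR adjusted P = 4e-15), the fibroblast growth factor FGF1 (2.26, edgeR adjusted P = 3.6e-08) and the hepatocyte growth factor HGF (2.01, edgeR adjusted P = 0.00064). CXCL8 fell from between 35.3 and 41.3 CPM in DMSO samples to between 0.721 and 0.779 in vemurafenib samples. HGF had only 5 to 11 counts per DMSO sample, and its log2 fold change ran from 1.319 to 2.455 under the alternatives. Of the angiopoietin-like ligands, ANGPTL1 (-0.95, edgeR adjusted P = 0.014) and ANGPTL2 (-0.48, edgeR adjusted P = 0.00074) fell with vemurafenib. The fall of ANGPTL1 missed the threshold without DMSO replicate 3 (adjusted P = 0.0598) or vemurafenib replicate 1 (0.06).

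Of 9 tested inhibitors of angiogenesis besides THBS1, 3 rose and 2 fell with vemurafenib, near the shares over all genes (26.4% and 26.3%). TIMP3, a metalloproteinase inhibitor that blocks KDR, fell (log2 -2.06, edgeR adjusted P = 4.9e-12), and tretinoin raised it both alone (0.64, edgeR adjusted P = 0.00018) and on top of vemurafenib (0.56, edgeR adjusted P = 0.00053). SERPINF1 (pigment epithelium-derived factor) rose by 1.27 (edgeR adjusted P = 4.3e-11) and SEMA3A, a neuropilin ligand, by 0.86 (edgeR adjusted P = 1.6e-08) with vemurafenib.

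Of 12 oxygen-sensing and PPAR regulators, 3 rose and 2 fell with vemurafenib, at or below the shares over all genes (26.4% and 26.3%). The prolyl hydroxylase EGLN3 rose by 2.63 (edgeR adjusted P = 4.2e-08) and ARNT, the partner of the hypoxia-inducible factors, by 0.82 (edgeR adjusted P = 3.5e-06). PPARG, a nuclear receptor, fell with vemurafenib (-0.82, edgeR adjusted P = 6.2e-07) and was 0.78 higher in the combination than in vemurafenib (edgeR adjusted P = 1.8e-05). The rise of PPARG with tretinoin alone (0.39, edgeR adjusted P = 0.012) missed the threshold without DMSO replicate 2 (0.0862) or tretinoin replicate 2 (0.0501).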

How the data were processed

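RNA from 12 A375 samples was sequenced. For each sample, the authors deposited unnormalized gene counts, made from 150-base paired-end reads of directional libraries of polyadenylated RNA. They aligned the reads to GRCh38.p10 with STAR 2.5.3a and counted fragments on GENCODE 27 genes with summarizeOverlaps, in union mode and ignoring the strand. Groups and replicate numbers came from the sample labels. Of the 58347 genes, 58084 were found in GENCODE 29 (GRCh38), used for symbols, positions and exon lengths.

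Genes were filtered with filterByExpr by group (16740 left) and scaled by TMM, and a quasi-likelihood model, with 1 term per group and without a block, was run on the 12 samples together in edgeR 4.0.16 (R 4.3.3). Benjamini-Hochberg adjustment was made over all genes within a comparison, with a threshold of 0.05. The common dispersion was 0.00653. Total counts of 13510235 to 21534377 leave genes of a few counts, such as ANGPT2, imprecise. Replicates differed by more than sampling noise in every pair (chi-square per degree of freedom 2.56 to 21.8). Tretinoin replicate 1 stood apart, at 19.1 against replicate 2 and 21.8 against replicate 3, which were at 2.56 against each other. The next highest value was 8.38, for combination replicates 1 and 2. Same-numbered samples of different groups did not deviate together: the correlation of deviations was at most 0.087 over 18 pairs.

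Named were the 10 members, every VEGF receptor and coreceptor, the 3 genes per other role with the largest called change with vemurafenib, and the 5 genes most like ESM1; EGLN1, CTGF, CDH5, ROBO4, VWF and ERG were added after their values were seen. The test planned for ESM1 between the single drugs is not reported, as it passed the filter through the groups where it is high. Members and lists were chosen with earlier results of these data known. Alternatives were DESeq2 1.42.0 with and without a beta prior, its size factors in edgeR, total counts alone, other low-count filters, the replicate number as a block, only the groups compared, and each sample left out in turn. The fit was tested on simulated data. Promoters came from a RefSeq table (GRCh38.p14), and shared exon sequence was searched with blastn 2.17.0. Summaries and plots were made in Python 3.11.15 with matplotlib 3.10.9, pandas 2.3.3 and numpy 2.4.6.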

Additional observations from a re-analysis of the deposited data

Results flagged for a closer look

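By edgeR's interaction term, the effect of tretinoin differed between cells with and without vemurafenib for 64 genes upward and 71 downward of 16740 tested (0.382% and 0.424%). They included 2 of the 45 tested angiogenesis genes outside the members, CTGF and EGLN1, and 1 of the 8 tested endothelial markers, CDH5. CTGF (connective tissue growth factor, a matrix protein) had 93.2, 115.8 and 101.9 CPM with DMSO, 90.0, 83.7 and 89.7 with tretinoin, 43.4, 48.3 and 52.0 with vemurafenib, and 74.4, 88.8 and 86.3 with the combination. Tretinoin gave a log2 difference of -0.24 alone (edgeR adjusted P = 0.12) and 0.80 on top of vemurafenib (edgeR adjusted P = 2e-05), and the interaction was 1.04 (SE 0.13, edgeR adjusted P = 0.00085). Of its exon bases 8.3% are shared with another gene.

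EGLN1, the prolyl hydroxylase that marks hypoxia-inducible factors for degradation, had 93.3, 104.0 and 97.4 CPM with DMSO, 86.8, 89.9 and 86.2 with tretinoin, 82.0, 83.4 and 81.1 with vemurafenib, and 94.3, 99.1 and 100.1 with the combination. Its interaction was 0.42 (SE 0.09, edgeR adjusted P = 0.034), from -0.16 with tretinoin alone and 0.25 on top of vemurafenib. The call was lost when any 1 of 9 samples was left out (adjusted P from 0.0547 to 0.11), with the replicate block (0.0696) and with total counts alone (0.0863).

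CDH5 (VE-cadherin), an endothelial junction gene singled out after its values were seen, had 4.19, 4.32 and 5.17 CPM with DMSO, 15.3, 14.1 and 11.0 with tretinoin, 0.208, 0.144 and 0.0601 with vemurafenib, and 2.48, 3.62 and 3.35 with the combination. Tretinoin alone raised it by 1.54 on the log2 scale (edgeR adjusted P = 1.5e-05). On top of vemurafenib the difference was 4.43, and the interaction was 2.88 (SE 0.45). CDH5 passed the low-count filter through the groups where it is high, so the latter pair is given without a P value. Under the alternatives these ran from 2.73 to 4.80 and from 1.29 to 3.26. The 3 vemurafenib samples held 8 counts in all, so the sizes of the differences from vemurafenib rest on few counts.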

How the results depend on the processing

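For the members, 52 differences were recomputed, giving 758 values under the alternatives: 687 kept their direction and side of the threshold, 31 lost the call, 9 gained it, 24 changed sign and 7 moved by more than the replicate spread without a test. Against reported counts of 6 members called with vemurafenib, 3 with tretinoin, 6 with the combination (each against DMSO), 3 for the combination against vemurafenib and 6 against tretinoin, the alternatives gave 5 to 6, 2 to 4, 5 to 6, 2 to 3 and 5 to 7. ESM1 in vemurafenib against tretinoin ran from -8.26 to -4.79 on the log2 scale, with no value where 10 counts were required in every sample. Replicate numbers did not pair the samples, and with the replicate block 5 members were called with vemurafenib (6 without the block), since VEGFC lost its call (log2 -0.27, adjusted P = 0.0503), and 2 with tretinoin, since ANGPT1 did (0.38, adjusted P = 0.0721).

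All changes of sign were in differences that were not called. With total counts alone, the median of all genes moved from 0.02 to 0.21 with vemurafenib and from 0.03 to 0.19 with the combination, with 6575 genes higher and 2628 lower against 4411 and 4400. Under that scaling VEGFA was at 0.155 with vemurafenib, 0.127 with the combination and -0.027 for the combination against vemurafenib, VEGFB at 0.092 with the combination and -0.081 for the interaction, ANGPTL4 at -0.007 for the interaction, and NRP2 at 0.057 with vemurafenib. With 10 counts in every sample VEGFA was at 0.003 with vemurafenib and 0.012 with the combination, and without a filter the THBS1 interaction was 0.016. DESeq2 put VEGFA at -0.002 for the combination against vemurafenib, with and without the beta prior, and with it the ANGPTL4 interaction at -0.27 and ESM1 at -3.80 with vemurafenib and -3.66 with the combination against DMSO.

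With each sample left out in turn, the ANGPTL4 interaction ran from -0.307 to 0.394, that of THBS1 from -0.124 to 0.118 and that of VEGFB from -0.044 to 0.076, and VEGFA ran from -0.088 to 0.012 with vemurafenib against DMSO and from -0.052 to 0.047 for the combination against vemurafenib. Of 592 values for other genes, 563 were unchanged in call and direction, 28 lost the call and 1 changed sign. Over all genes, calls from vemurafenib to the combination ran from 203 to 685 lower (369 in the reported fit), and interaction calls from 31 to 389 higher (64) and from 27 to 221 lower (71). With tretinoin, lower calls ran from 71 to 804 (368). Few counts limit ESM1 and ANGPTL4 under vemurafenib, and ANGPT2.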
